A study of Mus musculus with 12 samples.

Results

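The oligoadenylate synthetase (OAS) genes are a family of interferon-induced antiviral genes, and 6 of them were followed here in C2C12, a mouse myoblast cell line whose cells fuse into myotubes in low serum. The members Oas1a, Oas1g, Oas2, Oas3, Oasl1 and Oasl2 were the rows of the deposited count table that carry these symbols, 6 of 21232 symbols in all. All 6 passed the filter on low counts, and were among 12736 genes tested. RNA-seq libraries came from 4 groups of 3 replicates, lettered A, B and C. The groups were TNF, Fbxl2 siRNA, control and proliferation. TNF cells were differentiated for 48 h with TNF, an inflammatory cytokine, at 10 ng/ml. Fbxl2 siRNA cells were differentiated for 48 h after silencing of Fbxl2 by siRNA. Control cells were at 48 h of differentiation without TNF, and the proliferation group was myoblasts before differentiation. Fbxl2 encodes an F-box protein, the substrate-binding part of an SCF ubiquitin ligase. In the labels the line is of strain C57BL/6, and differentiation was in medium with horse serum. Whether the other groups received a non-targeting siRNA is not stated in the labels. No separate cultures are named for the replicates either, so the p-values cover only the spread among these 12 libraries and that spread may be technical.

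OAS enzymes bind double-stranded RNA and then join ATP into short chains of adenylate with unusual 2'-5' bonds, called 2-5A. The chains act as a second messenger whose action leads to cleavage of viral and cellular RNA and so limits the spread of a virus. Oas1a and Oas1g are small synthetases with a single catalytic unit, while Oas2 and Oas3 carry repeated units in a longer protein. The OAS-like proteins add ubiquitin-like domains. In the mouse, Oasl2 has kept synthetase activity, whereas Oasl1 lacks it and is known for holding back translation of the Irf7 mRNA. Transcription of the family is classically driven by interferon through a complex that includes Stat2 and Irf9 and binds the interferon-stimulated response element (ISRE). In skeletal muscle, interferon-induced genes are known from inflammatory myopathies.

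All 6 members lie on mouse chromosome 5 in 2 clusters (GENCODE M21, GRCm38, the build equivalent to mm10). Oasl2 (114896936 to 114912234) and Oasl1 (114923240 to 114937915) are neighbours on the plus strand. The larger cluster spans 120730333 to 120921652 and holds 9 protein-coding OAS genes. It includes Oas2 (120730333 to 120749853), Oas3 (120753098 to 120777661), Oas1g (120876142 to 120887613) and Oas1a (120896256 to 120907521), all on the minus strand. Oas1a and Oas1g are close copies: 57.6% of the distinct 50-base stretches of Oas1a transcripts also occur in Oas1g, and 45.2% of those of Oas1g occur in Oas1a. How the authors counted such shared reads is not known, so the division of counts between this pair is uncertain, and so is their total. Oas2 and Oasl1 shared no 50-base stretch with another gene, and Oas3 and Oasl2 shared 0.521% and 0.138%. Of the 6, Oasl1 alone overlapped exons of another annotated gene, Gm13822 on the opposite strand, over 38 bases.

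Promoter windows of 5 members, from 250 bases before to 50 bases after the annotated start, were taken from RefSeq (GRCm38.p6). Oas2 was not matched. Each window was searched on both strands for the ISRE letters (GAAA, any 2 bases, GAAA), the interferon-gamma-activated site (GAS) letters TTCNNNGAA and the common NF-kB motif. Of 32851 such windows in the RefSeq table, 3.44% held the ISRE letters, 8.3% the GAS letters and 4.51% the NF-kB motif. The 4 windows that held a match are shown, 5′ to 3′ along the gene's strand, with the matches in capitals because the members differ in which motif they hold. The windows are chr5:120907476-120907775 (minus) for Oas1a, chr5:120887564-120887863 (minus) for Oas1g, chr5:120777610-120777909 (minus) for Oas3 and chr5:114922990-114923289 (plus) for Oasl1.
Oas1a: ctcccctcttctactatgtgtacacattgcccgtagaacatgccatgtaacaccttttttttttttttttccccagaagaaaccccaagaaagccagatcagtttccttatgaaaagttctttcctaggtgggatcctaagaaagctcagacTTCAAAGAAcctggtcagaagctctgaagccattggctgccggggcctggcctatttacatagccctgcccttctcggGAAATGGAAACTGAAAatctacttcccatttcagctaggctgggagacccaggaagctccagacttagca
Oas1g: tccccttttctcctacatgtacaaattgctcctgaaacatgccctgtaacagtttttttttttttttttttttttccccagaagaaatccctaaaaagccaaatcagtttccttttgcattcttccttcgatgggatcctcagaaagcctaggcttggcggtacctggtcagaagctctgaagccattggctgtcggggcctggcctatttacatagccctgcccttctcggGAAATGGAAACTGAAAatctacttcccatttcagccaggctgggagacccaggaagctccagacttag
Oas3: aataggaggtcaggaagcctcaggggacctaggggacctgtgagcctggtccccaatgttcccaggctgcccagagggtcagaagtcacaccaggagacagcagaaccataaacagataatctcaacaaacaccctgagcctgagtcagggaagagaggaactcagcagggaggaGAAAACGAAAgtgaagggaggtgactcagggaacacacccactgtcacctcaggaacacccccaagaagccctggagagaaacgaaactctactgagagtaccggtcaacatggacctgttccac
Oasl1: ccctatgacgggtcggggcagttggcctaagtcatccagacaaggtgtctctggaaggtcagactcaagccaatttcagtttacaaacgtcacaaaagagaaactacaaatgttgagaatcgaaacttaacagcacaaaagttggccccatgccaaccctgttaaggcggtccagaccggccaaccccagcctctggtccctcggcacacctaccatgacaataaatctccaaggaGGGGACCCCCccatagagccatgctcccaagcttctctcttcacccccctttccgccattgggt
In Oas1a, the run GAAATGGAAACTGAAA holds 2 overlapping ISRE matches that begin at positions -20 and -14 from the start, and TTCAAAGAA at -98 is the GAS match. The same run stands in Oas1g, with matches beginning at -18 and -12. The 2 windows were identical at 207 of 298 bases without gaps (69.5%). Oas3 held 1 ISRE match, GAAAACGAAA, at -75. Oasl1 held no ISRE match and 1 NF-kB match, on the opposite strand at -14, where the letters shown are GGGGACCCCC. The Oasl2 window (chr5:114896684-114896983, plus) held none of the 3 motifs. A match is only an occurrence of these letters, and its use in these cells was not measured. GENCODE annotates 9 transcripts of Oasl2, and any other start or looser form of a motif was not searched.

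Libraries held between 26416978 and 32917763 counts. The detection floor, set at 3 counts, was 0.0899 to 0.113 CPM, a library's counts scaled to its TMM-adjusted total, which is the scale of the levels below. Floors cover counting error only. Fbxl2 itself had 20.6 to 23.6 CPM in the siRNA libraries against 31.8 to 34.4 CPM in control, a log2 fold change of -0.57 (edgeR adjusted p = 1.67e-07), and 27.7 to 29.7 CPM with TNF (log2 fold change -0.19 against control, edgeR adjusted p = 0.0137). Myotube markers (Myog, Myh3, Ckm, Acta1 and Tnnt3) summed to 439 to 611 CPM with TNF, 641 to 1008 CPM after Fbxl2 siRNA, 2000 to 2389 CPM in control and 42.2 to 54.7 CPM in proliferation. In bulk RNA, fewer cells of a type and less RNA per cell cannot be told apart. The part of these marker differences in the results below was not tested.

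All 6 members were higher with TNF than in control, and all 6 were higher after Fbxl2 siRNA than in control. They rose 3.21-fold (Oasl2) to 8.16-fold (Oas3) with TNF, and 2.44-fold (Oasl2) to 11.4-fold (Oasl1) after the siRNA, as ratios of mean CPM. Over all genes tested, 31.0% were called higher and 23.6% lower with TNF, and 34.1% higher and 29.8% lower after Fbxl2 siRNA (edgeR quasi-likelihood test, adjusted p under 0.05), so a call alone was common in both comparisons. Libraries that all lay above control, as for the 6 members, were also common, at 36.2% of genes tested with TNF and 38.6% after siRNA. The median log2 fold change of the 6 was 2.42 with TNF and 1.92 after siRNA, beside 0.03 and 0.03 over all genes tested. Both comparisons share the control libraries.

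**Figure D1:**
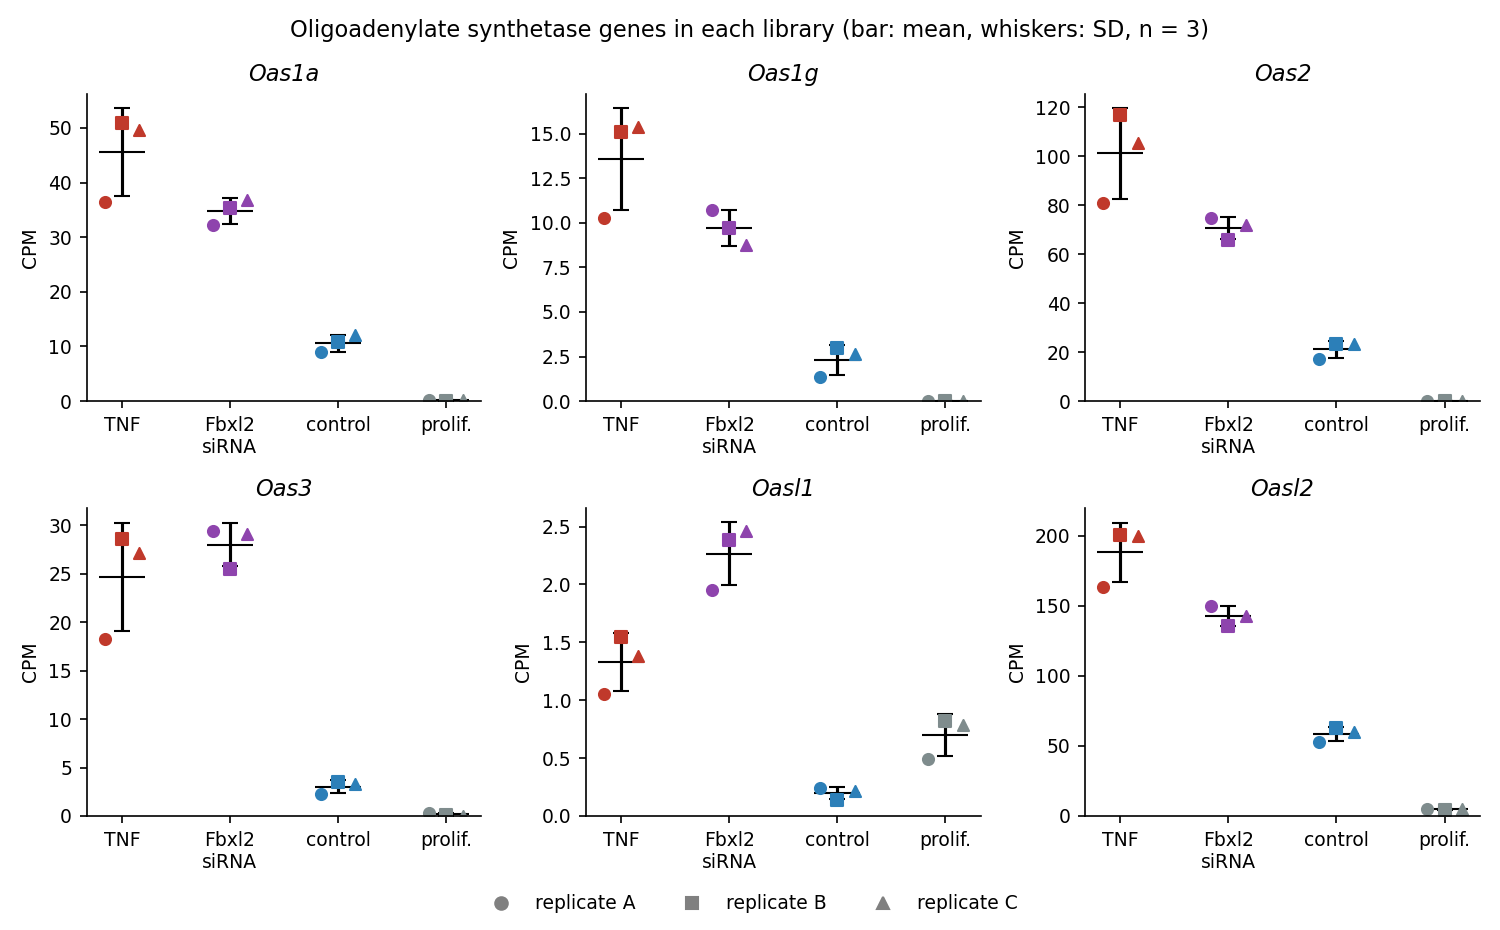
Level of each OAS member in CPM (linear axes from 0, a separate scale for each gene) in the 12 libraries, grouped from left to right as TNF, Fbxl2 siRNA, control and proliferation. Symbols mark replicates A, B and C, horizontal bars the mean and whiskers the SD (n = 3). All TNF and Fbxl2 siRNA libraries lie above all control libraries for all 6 genes, and Oasl1 is the gene that was lower in control than in proliferation.

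Among the small synthetases, Oas1a had 36.4, 50.9 and 49.6 CPM in TNF replicates A, B and C, 32.2, 35.3 and 36.8 CPM after Fbxl2 siRNA, 8.96, 10.8 and 12.1 CPM in control, and 0.132, 0.0744 and 0.164 CPM in proliferation. Neither treated group overlapped control, and control did not overlap proliferation. Oas1a rose 4.30-fold with TNF (log2 fold change 2.11 ± 0.13 SE, edgeR adjusted p = 1.45e-08) and 3.28-fold after siRNA (1.72 ± 0.13, edgeR adjusted p = 1.21e-07). Its close copy Oas1g had 10.3, 15.1 and 15.4 CPM with TNF, 10.7, 9.70 and 8.74 CPM after siRNA, 1.35, 2.96 and 2.62 CPM in control and no count in proliferation. Here too the groups did not overlap except TNF with siRNA, where TNF replicate A stood among the siRNA libraries. Oas1g rose 5.87-fold with TNF (2.57 ± 0.25, edgeR adjusted p = 2.02e-05) and 4.21-fold after siRNA (2.10 ± 0.26, edgeR adjusted p = 8.93e-05).

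Of the synthetases with repeated units, Oas2 had 80.9, 117 and 106 CPM with TNF, 74.7, 65.7 and 71.9 CPM after Fbxl2 siRNA, 17.1, 23.2 and 23.1 CPM in control and no count in proliferation. Every TNF library stood above every siRNA library, and every siRNA library above every control library. Oas2 rose 4.78-fold with TNF (log2 fold change 2.26 ± 0.17 SE, edgeR adjusted p = 2.03e-05) and 3.34-fold after siRNA (1.75 ± 0.18, edgeR adjusted p = 7.84e-05). Its neighbour Oas3 had 18.3, 28.5 and 27.2 CPM with TNF, 29.4, 25.5 and 29.1 CPM after siRNA, 2.28, 3.52 and 3.27 CPM in control, and 0.329, 0.112 and 0.0329 CPM in proliferation. The TNF and siRNA libraries of Oas3 overlapped, and both groups lay above control. Oas3 rose 8.16-fold with TNF (3.04 ± 0.22, edgeR adjusted p = 5.85e-07) and 9.27-fold after siRNA (3.22 ± 0.22, edgeR adjusted p = 2.73e-07).

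The OAS-like genes behaved less alike. Oasl2 had 164, 201 and 199.7 CPM with TNF, 149.9, 136 and 142 CPM after Fbxl2 siRNA, 53.0, 62.9 and 59.8 CPM in control, and 5.16, 4.47 and 4.83 CPM in proliferation, with no overlap between any 2 groups. It rose 3.21-fold with TNF (log2 fold change 1.68 ± 0.08 SE, edgeR adjusted p = 4.77e-12) and 2.44-fold after siRNA (1.29 ± 0.08, edgeR adjusted p = 1.78e-10). Oasl1, the member without synthetase activity, was scarce: 1.06, 1.54 and 1.38 CPM with TNF, 1.95, 2.38 and 2.46 CPM after siRNA, 0.240, 0.139 and 0.216 CPM in control, and 0.493, 0.819 and 0.789 CPM in proliferation. Its 4 groups did not overlap, and siRNA was highest and control lowest. Oasl1 rose 6.70-fold with TNF (2.69 ± 0.31, edgeR adjusted p = 2.36e-07) and 11.4-fold after siRNA (3.47 ± 0.28, edgeR adjusted p = 1.24e-09). These values rest on 114 counts in all with TNF, 190 after siRNA and 18 in control.

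TNF replicate A was the lowest of the 3 TNF libraries for all 6 members. Control replicate A was likewise the lowest control library for each member except Oasl1, for which it was the highest. Leaving out any single library kept every call of the 6 members against control.

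Between control at 48 h and proliferation, 5 members were higher in control and Oasl1 was lower. These groups differ in time as well as in differentiation, and the part of each was not tested. Over all genes tested, 38.4% were called higher and 38.9% lower in this comparison, and the groups did not overlap in 39.5% (control higher) and 39.7% (control lower). Oas2 had 1882 counts over the 3 control libraries and none in proliferation, at least 205-fold higher against the floor of 3 counts per library. Oas1g, with 203 counts in control and none in proliferation, was at least 22.4-fold higher. Oas1a was 85.9-fold higher in control, against only 11 counts in all in proliferation (log2 fold change 6.35 ± 0.35 SE, edgeR adjusted p = 1.65e-09). Oasl2, the member with the most reads in proliferating cells, was 12.1-fold higher (log2 95% interval 3.37 to 3.82, edgeR adjusted p = 3.87e-15). Oas3 was 19.2-fold higher (4.19 ± 0.58, edgeR adjusted p = 5.23e-05). Of its 14 counts in proliferation, 10 were in replicate A, and without that library the log2 fold change was 5.34. Oasl1 went the other way, with 18 counts in control and 61 in proliferation (log2 fold change -1.78 ± 0.35, edgeR adjusted p = 0.000109). Against proliferation, all 6 members were higher with TNF and all 6 after siRNA, beside 36.3% and 30.9% of all genes tested. Oasl1 was 1.89-fold higher than in proliferation with TNF (edgeR adjusted p = 0.00183) and 3.23-fold higher after siRNA (edgeR adjusted p = 1.14e-06).

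The direct comparison of both treated groups split the family. Against Fbxl2 siRNA, TNF gave higher Oas1a, Oas2 and Oasl2 and lower Oasl1, while Oas1g and Oas3 did not pass the test. Over all genes tested, 29.9% were called higher and 30.6% lower with TNF than after siRNA, and the groups did not overlap in 32.9% (TNF higher) and 33.4% (TNF lower). Oasl2 was 1.32-fold higher with TNF (log2 fold change 0.40 ± 0.07 SE, edgeR adjusted p = 0.000151). Oasl1 was lower with TNF, by a log2 fold change of -0.78 ± 0.20 (edgeR adjusted p = 0.00187). Both calls held in each fit that left out a library.

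Oas2 was 1.43-fold higher with TNF than after siRNA (log2 fold change 0.51 ± 0.16 SE, edgeR adjusted p = 0.0257), and its groups did not overlap. The call was nevertheless lost without TNF replicate B (edgeR adjusted p = 0.0520), TNF replicate C (0.0718), siRNA replicate B (0.0807) or siRNA replicate C (0.0615). Oas1a was 1.31-fold higher (0.39 ± 0.12, edgeR adjusted p = 0.0116), and its groups overlapped, since TNF replicate A stood below siRNA replicate C. That call was lost when only those 2 groups were fitted (edgeR adjusted p = 0.0554). For Oas1g the log2 fold change was 0.48, with a 95% interval of 0.00 to 0.95 (edgeR adjusted p = 0.0759). It passed without TNF replicate A (edgeR adjusted p = 0.00552), without control replicate A (0.00999) and when only those 2 groups were fitted (0.0243). For Oas3 the log2 fold change was -0.19, with a 95% interval of -0.56 to 0.18 (edgeR adjusted p = 0.357).

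**Figure D2:**
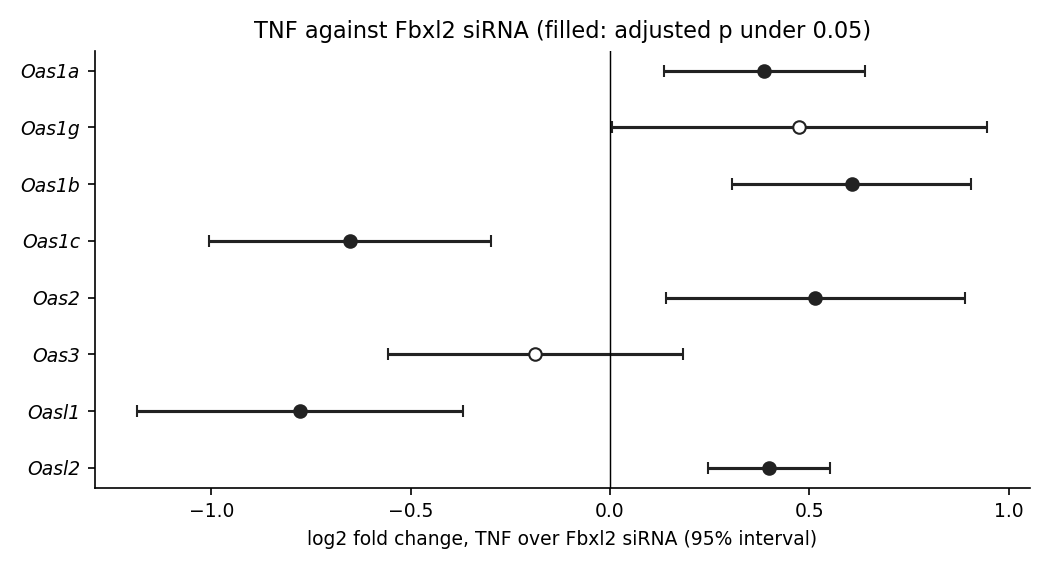
Log2 fold change of TNF over Fbxl2 siRNA for the 8 OAS genes that passed the count filter, with 95% intervals from the edgeR fit. Filled points have an adjusted p under 0.05. Of the filled points, Oasl1 (-0.78) and Oas1c (-0.65) lie left of 0, while Oas1a, Oas1b, Oas2 and Oasl2 lie right of it. The open points are Oas1g (0.48), right of 0, and Oas3 (-0.19), left of it.

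Related members were also compared as ratios within each library, with 0.5 added to each count. The log2 ratio of Oas2 to Oas3 counts averaged 2.05 ± 0.09 with TNF, 1.34 ± 0.03 after siRNA and 2.81 ± 0.09 in control (SD, n = 3 each), and the 3 groups did not overlap. This ratio was lowest after siRNA and highest in control. The log2 ratio of Oasl2 to Oasl1 averaged 7.14 ± 0.13 with TNF, 5.97 ± 0.24 after siRNA and 8.12 ± 0.48 in control, again with no overlap. Since Oasl1 had only 4 to 8 counts in a control library, this last value depends on the added count: with 2 added it was 7.80, and the difference between TNF and control was -0.72 in place of -0.98. For the close copies Oas1a and Oas1g, the log2 ratio averaged 1.75 ± 0.07 with TNF, 1.84 ± 0.24 after siRNA and 2.26 ± 0.43 in control, and only TNF and control did not overlap. Each comparison of non-overlapping groups had an exact two-sided permutation p of 0.1, the smallest that 3 against 3 allows (0.129 after adjustment over the 9 comparisons), so none could pass 0.05.

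**Figure D3:**
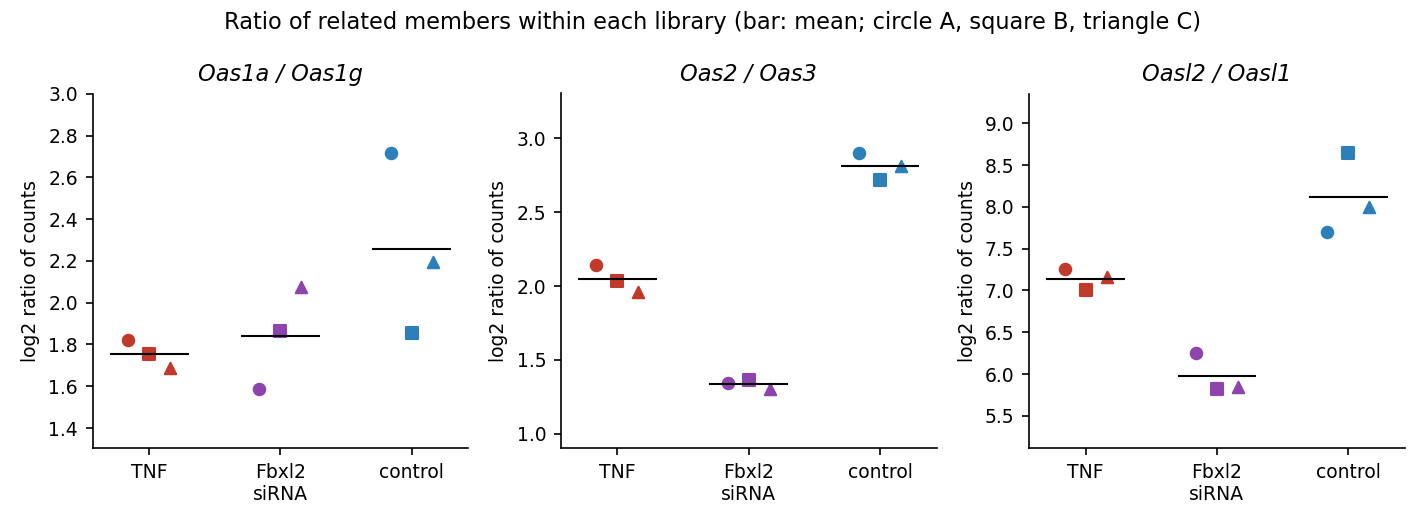
Log2 ratio of counts (0.5 added to each) of 3 pairs of related members in each TNF, Fbxl2 siRNA and control library, with the mean as a bar; the vertical axes do not start at 0. Oas2 over Oas3 and Oasl2 over Oasl1 are highest in control and lowest after Fbxl2 siRNA, with TNF between, while the Oas1a over Oas1g groups overlap in part.

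Per kilobase of annotated exon, the order of the levels with TNF was Oasl2 (29.5 CPM per kb), Oas1a (24.2), Oas2 (22.7), Oas1g (5.80), Oas3 (3.49) and Oasl1 (0.509). After siRNA, it was Oasl2 (22.4 CPM per kb), Oas1a (18.5), Oas2 (15.9), Oas1g (4.15), Oas3 (3.96) and Oasl1 (0.868). In control, the same order held at 9.19, 5.62, 4.75, 0.988, 0.428 and 0.0760 CPM per kb. Some neighbours in that order overlapped between libraries. These were Oasl2 with Oas1a and Oas1a with Oas2 under TNF, Oas1g with Oas3 after siRNA, and Oas1a with Oas2 in control. Within each single library the order of these pairs held, except in siRNA replicate C. There Oas3 (4.12 CPM per kb) stood above Oas1g (3.73). In proliferation Oasl2 led (0.756 CPM per kb) and Oasl1 came next (0.269), ahead of Oas1a (0.0655) and Oas3 (0.0223). Oasl2 accordingly made up 34.4% of the family's summed CPM per kb with TNF, 34.0% after siRNA, 43.8% in control and 68.0% in proliferation. The per-kb values use the union of annotated exons, so a member whose used transcript is shorter reads low. The places of Oas1a and Oas1g in this order, and the family shares, also depend on how their shared reads were counted.

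Of the other 6 OAS genes in the table, Oas1b and Oas1c passed the count filter, and Oas1d, Oas1e, Oas1f and Oas1h had at most 2 counts in any group. Oas1b, the mouse gene for resistance to flaviviruses, is annotated as a polymorphic pseudogene, and many laboratory strains are known to carry a truncated form. It averaged 5.48 ± 0.51 CPM with TNF, 3.59 ± 0.16 CPM after siRNA, 1.53 ± 0.25 CPM in control and 0.0219 CPM (2 counts) in proliferation. It rose 3.59-fold with TNF (edgeR adjusted p = 4.69e-09) and 2.35-fold after siRNA (edgeR adjusted p = 2.55e-06), and was higher with TNF than after siRNA (log2 fold change 0.61, edgeR adjusted p = 0.00114). Oas1c averaged 1.64 ± 0.18 CPM with TNF, 2.57 ± 0.27 CPM after siRNA and 0.845 ± 0.161 CPM in control. It rose 1.94-fold and 3.04-fold over control (edgeR adjusted p = 0.000424 and 2.87e-07), and was lower with TNF than after siRNA (log2 fold change -0.65, edgeR adjusted p = 0.00240). Oas1c shared 15.1% of its 50-base stretches with other genes and overlapped Gm43069 on the opposite strand over 227 exonic bases, so its counts are uncertain.

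The genes beside both clusters did not follow the family in size. Next to the Oasl pair, 1500011B03Rik had log2 fold changes of 0.24 with TNF and 0.27 after siRNA, and 2210016L21Rik 0.04 and 0.28. Beyond the larger cluster, Ptpn11, a tyrosine phosphatase gene, had -0.04 with TNF (edgeR adjusted p = 0.473) and -0.43 after siRNA (edgeR adjusted p = 2.3e-07). The flanking genes 4930519G04Rik, Rasal1, Dtx1 and Rph3a had too few counts to be tested.

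**Figure D4:**
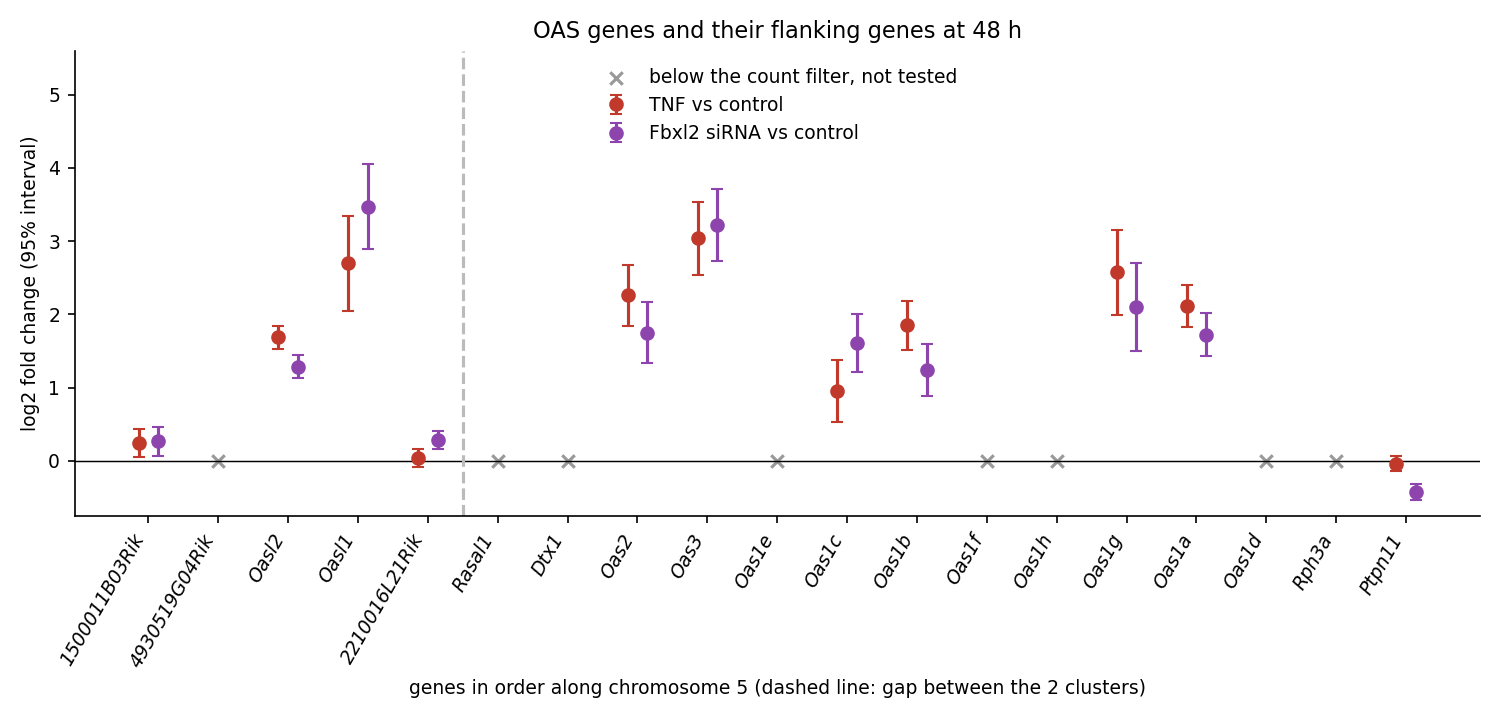
Log2 fold change against control, with 95% intervals, for the OAS genes and their flanking genes in their order along chromosome 5, with TNF and Fbxl2 siRNA side by side; crosses mark genes below the count filter, drawn at 0 without a value. The 8 tested OAS genes lie between 0.96 and 3.47, and the 3 tested flanking genes between -0.43 and 0.28.

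Genes of 2-5A turnover and action changed less than the synthetases. Abce1, a ribosome recycling factor that is also known to restrain the 2-5A pathway, rose 1.29-fold with TNF (edgeR adjusted p = 1.03e-05) and had a log2 fold change of -0.06 after siRNA (edgeR adjusted p = 0.390). Pde12, a phosphodiesterase that degrades 2-5A in human cells, had log2 fold changes of 0.00 with TNF and 0.08 after siRNA, and neither passed. Akap7, whose mouse product also degrades 2-5A, fell with TNF (log2 fold change -0.20, edgeR adjusted p = 0.0171) and rose after siRNA (0.20, edgeR adjusted p = 0.0148).

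Upstream, the genes of interferon signalling were compared from lists chosen for this pathway. The counts called in each list stand beside the shares over all genes tested. Those were 31.0% higher and 23.6% lower with TNF, and 34.1% higher and 29.8% lower after siRNA. Between TNF and siRNA, 29.9% were higher with TNF and 30.6% lower. None of 20 interferon ligand genes passed the count filter, and together they had 20 counts over the 3 TNF libraries, 23 after siRNA, 20 in control and 9 in proliferation. Ifnb1, the interferon beta gene, had 0 counts with TNF, 1 after siRNA, 1 in control and 0 in proliferation. Ligand transcripts below the floor of 0.0899 to 0.113 CPM were not detectable in a library. Among receptors and their kinases, all 8 tested genes were higher with TNF, and 3 were higher and 2 lower after siRNA. Ifnar1, a subunit of the type I interferon receptor, rose 1.15-fold with TNF (edgeR adjusted p = 0.000164) and fell after siRNA (log2 fold change -0.24, edgeR adjusted p = 2.63e-05).

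Of 9 STAT and IRF factors tested, 7 were higher and 1 lower with TNF, and 6 were higher and 1 lower after siRNA. Irf7, the factor whose mRNA Oasl1 is known to hold back, rose 3.76-fold with TNF (log2 fold change 1.91 ± 0.15 SE, edgeR adjusted p = 1.24e-06) and 2.55-fold after siRNA (1.35 ± 0.15, edgeR adjusted p = 1.72e-05). Of the complex that binds the ISRE, Stat2 rose 2.39-fold with TNF and 1.63-fold after siRNA. Irf9 of the same complex rose 1.88-fold with TNF and 1.61-fold after siRNA. Irf1, which is also a target of NF-kB, rose 2.72-fold with TNF and 1.16-fold after siRNA. All 6 of these rises of Stat2, Irf9 and Irf1 passed the edgeR test. The direct comparison gave higher Irf1 with TNF than after siRNA by a log2 fold change of 1.23 ± 0.04 (edgeR adjusted p = 1.59e-15). Stat2 was higher by 0.55 ± 0.07 (edgeR adjusted p = 5.24e-06). Irf7 was higher by 0.56 (edgeR adjusted p = 0.00481) and Irf9 by only 0.22 (edgeR adjusted p = 0.00470). In the same comparison the 6 OAS members ranged from -0.78 (Oasl1) to 0.51 (Oas2), with 0.39 for Oas1a and -0.19 for Oas3.

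Of 28 other interferon-stimulated genes tested, 27 were higher and none lower with TNF (median log2 fold change 1.56), and 25 were higher and none lower after siRNA (median 0.77). In the direct comparison, 24 of the 28 were higher with TNF than after siRNA and none lower. Of 20 NF-kB targets, which TNF is known to induce, all 20 were higher with TNF (median 2.17), including the chemokine gene Ccl2 at 109-fold. After siRNA, 7 of the 20 were higher and 5 lower (median 0.02), and Ccl2 rose 2.43-fold. Among sensors of double-stranded RNA, 7 of 9 were higher with TNF and 8 of 9 after siRNA. Zbp1, a nucleic acid sensor gene, rose 9.64-fold with TNF and 3.63-fold after siRNA (edgeR adjusted p = 7.24e-15 and 2.44e-11). Ifih1, which encodes the sensor Mda5, rose 2.78-fold and 1.99-fold. Of 5 genes of the cGAS-STING pathway, 5 were higher with TNF, and 3 were higher and 1 lower after siRNA. Of 8 genes that restrain interferon signalling, 5 were higher and none lower with TNF, and 3 were higher and 3 lower after siRNA. After siRNA, the counts for receptors and kinases, NF-kB targets and these restraining genes lay near the shares over all genes tested.

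Across the 12 libraries, the gene closest to the mean pattern of the 6 members outside the family was Irf7, with a root-mean-square difference of 0.37 on the log2 CPM scale. Ddx60, Cmpk2, Mx2 and Irgm2 followed, at 0.43 to 0.55. For Oas1a the nearest genes were Usp18 (0.30), Ifi27l2a (0.30) and Oas1g (0.37), and for Oasl2 they were Isg15 (0.16), Igtp (0.16) and Rtp4 (0.18). Oas2 was nearest to Iigp1 (1.00), and Oas3 to Oas1g (0.63). Oasl1 stood apart: its nearest genes were Tpsab1 (0.50), Ak4 (0.54) and Sprr2k (0.55). As a description, Pearson's r of log2 CPM between Oasl1 and the other 5 members was 0.290 to 0.504 over these 12 libraries, and r between any pair of the other 5 was 0.955 to 0.998. The 12 libraries fall into 4 groups, so these values mostly carry the differences between groups.

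Markers of other cell types were measured beside the family. The 6 macrophage markers summed to 2.09 to 2.50 CPM with TNF, 1.63 to 1.70 CPM after siRNA, 2.25 to 3.85 CPM in control and 1.32 to 1.45 CPM in proliferation, and Adgre1 had no count in any library. Of 5 plasmacytoid dendritic cell markers, Siglech and Bcl11a had no count in any library, and the sum was 218 to 232 CPM with TNF, 197 to 218 CPM after siRNA, 310 to 321 CPM in control and 136 to 158 CPM in proliferation, with Tcf4, which many cell types express, averaging 225 CPM with TNF, 206 CPM after siRNA, 315 CPM in control and 143 CPM in proliferation. The 4 endothelial markers summed to at most 2.62 CPM in any library. The 5 fibroblast markers summed to 2061 to 2166 CPM with TNF and 1563 to 1679 CPM after siRNA. Their sum was 2274 to 2342 CPM in control and 461 to 612 CPM in proliferation. Thy1 was at 0 in all TNF, control and proliferation libraries. Most of the sum with TNF and in control was Col1a1, which averaged 1971 and 1813 CPM. Dcn was lower with TNF than in control (119 against 488 CPM), as was Lum (0.0711 against 1.08 CPM), while Pdgfra was higher (32.4 against 15.8 CPM).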

How the data were processed

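The authors deposited whole-number read counts per gene symbol for 12 libraries, with comparison tables of log2 fold changes and adjusted p-values. CASAVA, DESeq2 and mm10 are named, without versions, per the submitters' processing notes. The sources used here do not name the aligner, counter, strand setting or annotation. The log2 fold changes and p-values that the authors deposited were compared with the fits only to check direction. The comparison named for proliferation lay nearest to TNF over proliferation (median absolute log2 difference 0.000329), not to control over proliferation (0.214). The other deposited comparisons lay nearest to the fits of the groups they name (0.0218 for Fbxl2 siRNA and 0.0270 for TNF, over control). In the comparison tables, 24 per-sample columns were not used. Counts were tested with edgeR 4.0.16 in R 4.3.3 (TMM scaling, filterByExpr, quasi-likelihood F test with robust spread, 4 group means, 8 residual degrees of freedom, Benjamini-Hochberg adjustment over 12736 genes, threshold 0.05). CPM is the count scaled to the library total times its TMM factor, and a fold is a ratio of mean CPM. Per-kb levels and positions used GENCODE M21. DESeq2 1.42.0, other scalings, no filter, the replicate letter as a block and left-out libraries were alternatives. The method was tested on simulated data. The members and gene lists were chosen with earlier results of these data known. The named genes are the 6 members, the other OAS genes, the 2-5A genes, Stat2, Irf9, Irf7, Irf1, Ifnb1, Ifnar1, Fbxl2, list members with the smallest p, and the genes nearest in pattern; some genes of this rule are not reported here. Replicate libraries differed by more than counting noise. Figures were drawn with matplotlib.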

Additional observations from a re-analysis of the deposited data

How the results depend on the processing

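For 57 results, 1017 values were computed under alternatives. Of these, 1003 kept their direction and their side of the threshold, or stayed within 1.5 times the count. All 14 others concerned TNF against Fbxl2 siRNA. The count of members called there, 4 as reported, was 2 (1 higher, 1 lower) without all libraries of letter B, and 3 to 5 when a single library was left out. Without letter B the edgeR adjusted p was 0.214 for Oas1a and 0.233 for Oas2, and without letter C it was 0.157 for Oas2. Without letter A, Oas1g passed (edgeR adjusted p = 1.45e-05) and the log2 fold change of Oas3 reversed to 0.030 (edgeR adjusted p = 0.770); neither direction of Oas3 passed. The other 8 are given beside their results. Those fits have fewer libraries or groups, and the cause was not tested otherwise. In the other 5 comparisons 6 members were called under every alternative run. The replicate letters are not said to pair the samples. Deviations of same-letter libraries correlated at -0.0957 to 0.183, over 0.1 in 3 of 18 pairs. Those of different-letter libraries correlated at -0.156 to 0.131, over 0.1 in 1 of 36 pairs. These values do not settle whether libraries of a letter share a source or a batch. With the letter as a replicate block, the number of genes called was 7070 for TNF against control (6960 without it), 8239 for Fbxl2 siRNA against control (8142) and 7833 for TNF against Fbxl2 siRNA (7705), and members called numbered 6, 6 and 4 as without it. Depth limits Oasl1 in control (18 counts) and every member but Oasl2 in proliferation.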
